A study of Mus musculus with 10 samples.

Results

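Ion channel and ion pump genes were examined in the prefrontal cortex of collagen-immunised (arthritic) DBA/1 mice and of control mice. The set holds every array probe whose single gene symbol begins with Kcn (potassium channels and their accessory subunits), Scn and a digit (sodium channels), Cacn (calcium channels), Clcn or Clic (chloride channels and transporters), Hcn (pacemaker channels), Trpa, Trpc, Trpm or Trpv and a digit (transient receptor potential channels), Atp1a or Atp1b (sodium-potassium pump), Atp2a, Atp2b or Atp2c (calcium pumps), or Ryr or Itpr (intracellular calcium release channels). This gave 103 probes for 96 genes, out of 9078 probes that the platform table lists and 8726 genes with a probe of 1 symbol. The rule uses the symbols and no measured value. It also takes in 2 probes that are no channel: the antisense transcript Kcnmb4os1 and Trpc4ap, whose product binds a TRP channel. Channels of the glutamate, GABA and acetylcholine receptors fall outside it.

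The study compared both kinds of mice directly on 2-colour oligonucleotide arrays printed in-house. Collagen mice, males of 8 weeks, received type II collagen (100 µl) in Complete Freund's adjuvant (100 µl) into the skin, and control mice of the same strain, sex and age received the adjuvant alone (200 µl). LPS was given to both at day 24, so the ratio sets collagen with less adjuvant against more adjuvant. The 10 arrays form 5 dye-swap pairs, numbered here 1 to 5. Collagen RNA carried Cy5 on 5 arrays and Cy3 on the other 5, with control RNA in the other dye. The titles give pairs 1 and 4 the same replicate number, pairs 2 and 5 another and pair 3 a number of its own, which makes the 3 replicates that the series text states.

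Ion channels are membrane proteins that let potassium, sodium, calcium or chloride pass down their gradients, and pumps use ATP to build those gradients. In cortical neurons sodium channels and voltage-gated potassium channels shape the action potential, HCN channels and tandem-pore potassium channels set the resting state, and calcium channels couple firing to transmitter release and gene expression. Auxiliary subunits place these channels in the membrane and tune their gating.

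Every ratio below is a log2 ratio of collagen over control, so a value below 0 means a weaker signal in collagen mice. Nothing in the files says which dye was read in channel A and which in channel B. Following the order of the labels, A is treated as Cy3 and B as Cy5, so all directions are likely rather than settled; with the letters the other way round every sign would turn and every size would stay. The labels do not say how many mice stand behind a replicate or whether replicates are separate animals. The p-values thus rest on the scatter of 3 values per probe, drawn toward a scatter pooled over all tested probes. Both may be technical. All mice are labelled male, but Xist, the RNA of the inactive X chromosome of females, gave a signal. Its 2 probes were stronger in collagen RNA on 7 of 9 and on 6 of 6 arrays. The probe that could be tested had a ratio of 1.09, which did not pass (adjusted p = 0.642 by limma). In bulk tissue, fewer cells of a type and less RNA per cell cannot be told apart.

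Channel and pump probes were detected somewhat more often than the array at large. Of the 103 probes, 28 (27.2%) had a signal in both channels on all 10 arrays, against 20.3% of all listed probes. The median was 7 arrays for channel and pump probes and 6 for all listed probes, and 16 channel and pump probes were measured on under 5 arrays. Per array 53 to 92 of the 103 were measured in both channels, and 45.2% to 85.9% of all listed probes. Channel B set the limit. Over the 1030 combinations of probe and array, a signal was present in channel A in 97.5% and in channel B in 70.2%. In channel A every channel and pump probe was measured on at least 8 arrays. Each dye carried collagen RNA on 5 arrays, and the signal was present in collagen RNA in 863 and in control RNA in 864 of the combinations.

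**Figure D1:**
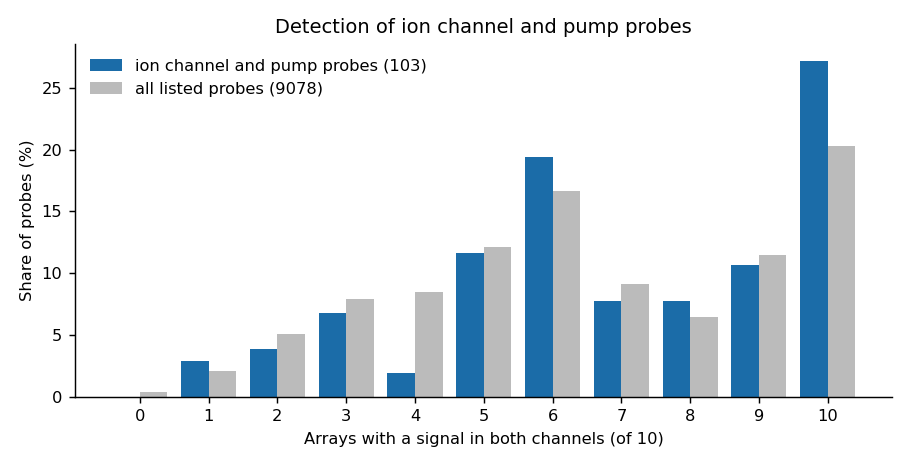
Share of probes (%, vertical axis) by the number of arrays with a signal in both channels (horizontal axis, 0 to 10), for the 103 ion channel and pump probes (blue) and all 9078 listed probes (grey). On all 10 arrays stood 27.2% of the channel and pump probes and 20.3% of all listed probes.

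A ratio in all 3 replicates, which the test needed, was reached by 57 of the 103 probes (55.3%, against 45.4% of all listed probes), standing for 55 genes. With limma and a Benjamini-Hochberg adjustment over the 4125 probes tested, no channel or pump probe passed. The background was the same: 0% of all tested probes passed. The smallest adjusted p among channel and pump probes was 0.642. Most ratios were small, with 53 of 57 under 0.3 in size and a range of -0.41 for Clic1 to 0.30 for Scn1a.

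The set lay slightly on the lower side. Of the 57 tested probes 36 were below 0 and 21 above, so 63.2% were lower, against 54.5% of all tested probes. Their median was -0.06, and that of all tested probes -0.02. By replicate the median of the 57 was -0.07, -0.01 and -0.15, a mean of -0.08 ± 0.07 (SD, n = 3), so the shift was about as large as its spread between replicates. In 19 probes all 3 replicates fell on 1 side of 0 (33.3%, against 35.2% of all tested probes), 16 of them lower and 3 higher. Over all tested probes this split leaned the same way, with 867 lower and 584 higher. Lower in all 3 replicates were 28.1% of the 57 probes and 21.0% of all tested probes.

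At an unadjusted p under 0.05, limma gave 5 channel and pump probes on the lower side (8.77%, background 4.12%) and 0 on the higher side (background 2.38%). The 5 were Clcn1, Cacng2, Kcnk1, Kcnc1 and Hcn2. With print-tip loess, which fits each of the 48 printed grids by itself, 2 of the 57 were lower at that level (background 2.42%) and 0 higher (background 1.77%). These 2 were Kcnc1 and Hcn2. The split of directions moved with the replicates used, also over all tested probes. Without replicate 3, 4 of the 79 channel and pump probes then tested were lower and 5 higher. The background there was 2.62% lower and 6.25% in both directions together. Without replicate 1, 2 of 62 were lower and 2 higher (background 3.78% lower, 6.02% in both directions together). Without pair 4, 2 of 38 were lower (background 3.46%), and without pair 5, 3 of 37 (background 2.66%), with 0 higher in both. Without pair 1, 6 of 49 were lower (background 4.18%), and without pair 2, 4 of 54 (background 4.42%). Without replicate 2, 4 of 58 were lower (background 3.11%). In each of these, too, 0 were higher.

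Hcn2 encodes a pacemaker channel that opens when the membrane becomes more negative and helps to set the resting potential of cortical neurons. Its intensity in collagen RNA had a lowest value of 38.2, a median of 271.2 and a highest value of 722 over the 10 arrays, against 64.6, 281 and 813 in control RNA (intensities here and below are in units of 1000, before loess). After loess the ratios on arrays with collagen on Cy5 were -0.06, -0.08, -0.39, -0.19 and -0.06 in pairs 1 to 5. On arrays with collagen on Cy3 they were -0.32, -0.33, -0.47, -0.68 and 0.05. The collagen signal was thus the weaker one on 9 of 10 arrays, the exception being an array of pair 5. The replicates had -0.31, -0.10 and -0.43, with a mean of -0.28 (SE 0.10). Limma gave Hcn2 an unadjusted p of 0.0337 and an adjusted p of 0.642. With print-tip loess its ratio was -0.36, with an unadjusted p of 0.0166 by limma (adjusted p = 0.83). The only other pacemaker probe, for Hcn3, was measured on 5 arrays and not tested.

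Kcnc1 encodes a fast voltage-gated potassium channel best known from fast-firing interneurons. Its intensity ran from 36.7 over a median of 311 to 1104 in collagen RNA and from 63.1 over 371 to 1159 in control RNA, on 9 arrays. With collagen on Cy5 the ratios were -0.23, 0.57, -0.15 and -0.47 in pairs 1, 2, 3 and 5. With collagen on Cy3 they were -0.57, -0.38, -0.28, -0.24 and -0.41 in pairs 1 to 5. The collagen signal was the weaker one on 8 of the 9 arrays. The replicates had -0.40, -0.17 and -0.22, with a mean of -0.26 (SE 0.10), an unadjusted p of 0.0337 and an adjusted p of 0.642 by limma. With print-tip loess the ratio was -0.31, with an unadjusted p of 0.00606 and an adjusted p of 0.83 by limma.

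**Figure D2:**
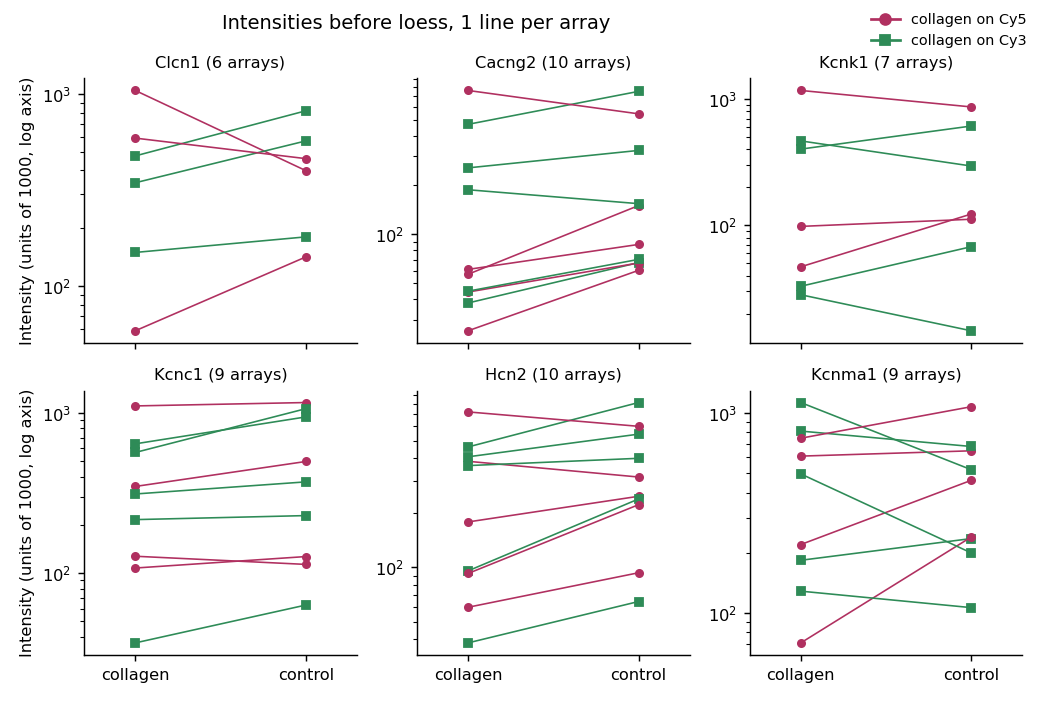
Background-corrected intensity (in units of 1000, log axis, mean of 3 readings) in collagen RNA (left) and control RNA (right) for 6 genes, before loess; each line is 1 array, with collagen on Cy5 (red circles) or on Cy3 (green squares). For Kcnma1 the collagen signal was the lower one on all 4 arrays with collagen on Cy5 and the higher one on 4 of 5 with collagen on Cy3, and Hcn2 and Kcnc1 show mostly a lower collagen end.

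Clcn1 encodes the chloride channel of skeletal muscle, which is also transcribed in brain. It was measured on 6 arrays, those of pairs 3 to 5, where its intensity was 58.5, 410 and 1043 (lowest, median and highest) in collagen RNA and 142, 430 and 817 in control RNA. The replicates had -0.40, -0.42 and -0.19, each from 1 pair. The mean was -0.34 (SE 0.10), with an unadjusted p of 0.0131 and an adjusted p of 0.642 by limma, and -0.23 with print-tip loess (unadjusted p = 0.0522). It was -0.08 with median centring. The authors' deposited values, whose log base is not given, also had -0.08. The array values were uneven. With collagen on Cy5 they were 0.39, -0.26 and 0.17, and with collagen on Cy3 -0.78, -0.53 and -1.0, so every array with collagen on Cy3 was lower while the other 3 fell on both sides of 0.

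Cacng2 encodes stargazin, which carries AMPA-type glutamate receptors to the synapse and belongs to the gamma subunits of calcium channels. On all 10 arrays its intensity was 25.7, 58.95 and 761 (lowest, median and highest) in collagen RNA and 60.2, 118 and 751 in control RNA. All 5 pairs were below 0, at -0.07, -0.26, -0.23, -0.56 and -0.19, and 8 of 10 arrays were. The mean of the replicates was -0.26 (SE 0.09), with an unadjusted p of 0.0277 and an adjusted p of 0.642 by limma. Print-tip loess moved it to -0.08. In the authors' deposited values, taken as collagen over control on every array, it lay on the other side of 0, at 0.04.

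Kcnk1 encodes a tandem-pore potassium channel of the background, or leak, type. It was measured in pairs 3 to 5 and on 1 array of pair 1, at 28.2, 98.0 and 1169 in collagen RNA and 14.6, 123 and 866 in control RNA. The pairs had -0.62, -0.26 and -0.13, with a mean over the replicates of -0.34 (SE 0.12), an unadjusted p of 0.0324 and an adjusted p of 0.642 by limma. The probe was lower on 4 of its 7 arrays, and with print-tip loess the ratio was -0.08.

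**Figure D3:**
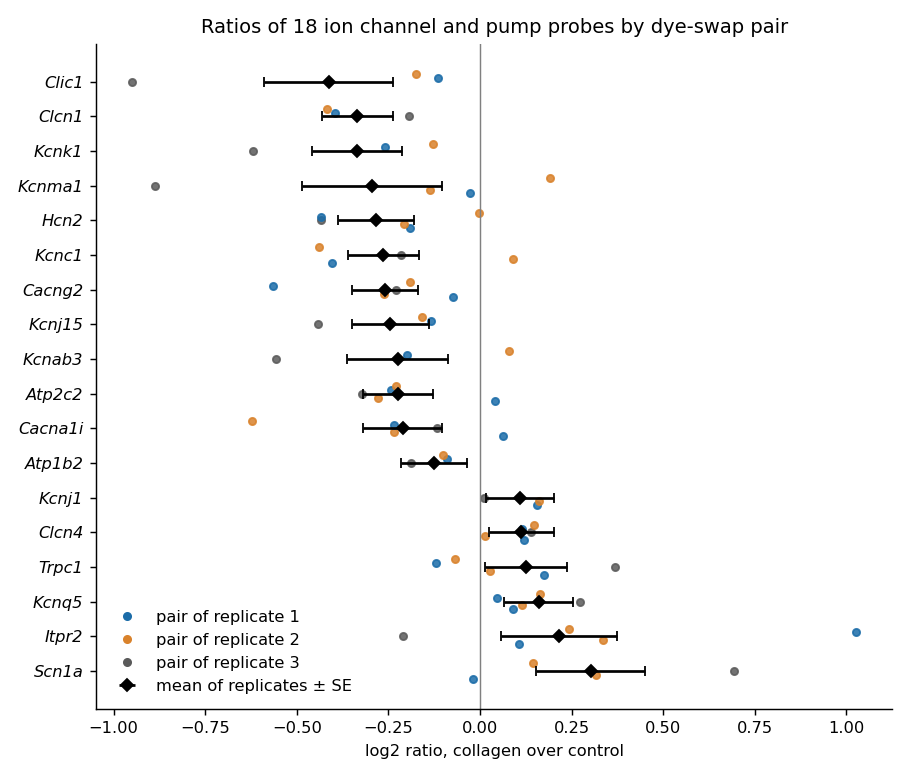
Log2 ratio of collagen over control (horizontal axis) for 18 ion channel and pump probes (rows): the mean of 3 replicates with limma's SE (black diamond and bar) and each dye-swap pair (coloured by replicate). The pair of replicate 3 lies far below the others for Clic1, Kcnk1 and Kcnma1, and above them for Scn1a and Trpc1.

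Place on the array moved with these values. The spots lie in 12 rows and 4 columns of printed grids. In rows 1 to 3, the median of all tested probes was -0.13 and 78.8% were lower. The channel and pump probes there had a median of -0.24, with 13 of 14 lower, and Clcn1, Cacng2 and Kcnk1 were among them. In rows 4 to 12 the 43 channel and pump probes had a median of -0.01, with 23 lower (53.5%), against a median of 0.01 and 45.2% lower for all tested probes. Hcn2 and Kcnc1 lie in rows 6 and 9, where the median of all tested probes was 0.03 and 0.05. With print-tip loess 38 of the 57 were lower, with a median of -0.07, against 54.8% lower and a median of -0.01 for all tested probes. The sign was kept by 47 of the 57. The part that position plays in the lower side of the set was not tested.

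**Figure D4:**
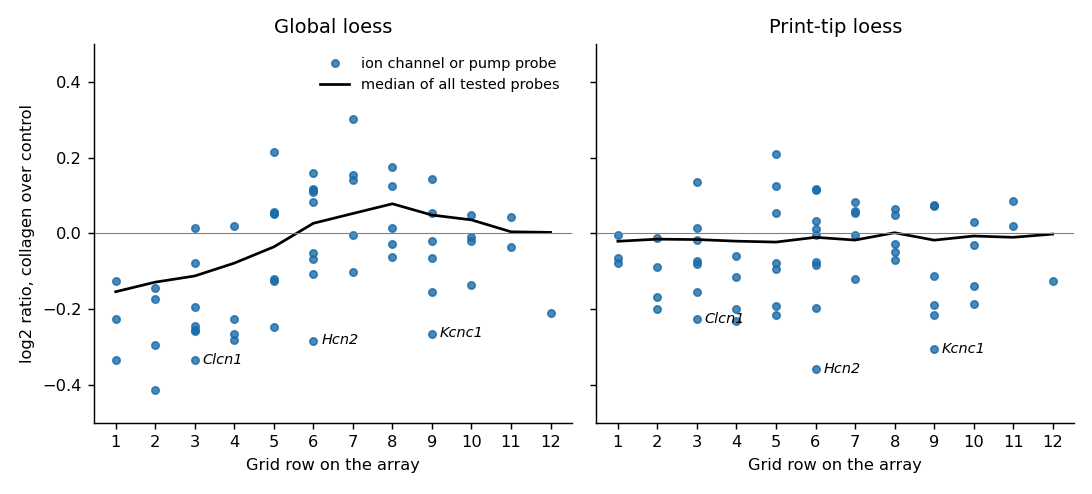
Log2 ratio of collagen over control (vertical axis) of the 57 tested ion channel and pump probes (blue points) by grid row on the array (horizontal axis, 1 to 12), after global loess (left) and print-tip loess (right), with the median of all tested probes in each row (black line). After global loess the line runs from -0.15 in row 1 to 0.08 in row 8, and after print-tip loess it stays between -0.02 and 0.00, with Hcn2 and Kcnc1 at the bottom of the points.

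Among potassium channels, pore-forming members were lower in 13 of 20 tested probes (65%, against 54.5% of all tested probes). Their median was -0.09, and -0.01 with print-tip loess. Of the 20, Kcnk1 and Kcnc1 were lower at an unadjusted p under 0.05 by limma (10%, background 4.12%). The voltage-gated class had 12 of 19 probes tested, 8 lower and 4 higher, with a median of -0.09 (-0.01 with print-tip loess). After Kcnc1 came Kcnh7 at -0.26 and Kcnh3 at -0.25, both of the ether-à-go-go family of delayed potassium channels. Kcna1, an axonal channel that limits repetitive firing, had -0.25 (-0.22 with print-tip loess). With print-tip loess Kcnh3 stood at 0.01, and a second, untested probe of Kcnh3 was above 0 in each of its pairs, at 0.07, 0.41 and 0.02 in pairs 2, 3 and 5. The lymphocyte and microglia channel Kcna3 had -0.19, and its replicates lay on both sides, at 0.19, -0.13 and -0.65. The A-type channels Kcnd3, Kcnd1 and Kcnd2, which delay the return to firing, had -0.15, 0.05 and 0.04. The modulatory subunits Kcns1, Kcng4 and Kcnv1, which are silent on their own, had -0.03, -0.02 and 0.06.

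Kcnq5, a subunit of the M-current that restrains excitability, was the higher member with the same sign in all replicates and the smallest p. It had 0.09, 0.11, 0.27, 0.05 and 0.16 in pairs 1 to 5, all above 0. The arrays were less even. With collagen on Cy5 they had -0.10, 0.19, 0.41, -0.20 and -0.25 in pairs 1 to 5. With collagen on Cy3 they had 0.28, 0.04, 0.14, 0.29 and 0.57, so 7 of 10 arrays were higher. Its intensity was 53.4, 366 and 1089 (lowest, median and highest of 10 arrays) in collagen RNA and 61.9, 330 and 971 in control RNA. The mean of 0.16 (SE 0.09) had an unadjusted p of 0.140 and an adjusted p of 0.642 by limma, and it was -0.06 with median centring and -0.01 in the highest gain reading alone.

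Inward rectifiers hold the resting potential near that of potassium. Kcnj15 had -0.25 (SE 0.10; replicates -0.13, -0.16 and -0.44) and Kcnj3, a subunit opened by G proteins, -0.15. Kcnj1, best known from kidney tubules, had 0.11 (SE 0.09; replicates 0.16, 0.16 and 0.01) and stood at 0.00 with print-tip loess. Kcnk10, the second tandem-pore channel with a test, had 0.08. Of the accessory subunits 4 of 5 tested were lower, all by little: Kcnab3, a cytoplasmic beta subunit, at -0.23 (SE 0.14; replicates -0.20, 0.08 and -0.56), Kcnmb4, the brain beta subunit of the BK channel, at -0.10, Kcne1 at -0.06 and Kcnip2 at -0.04. Kcnip1 had 0.02. None of these passed the test.

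Kcnma1, the pore of the BK channel that opens on calcium and voltage together, gave the set's largest dye ratio by size. With collagen on Cy5 its ratios were -0.75, -0.73, -2.31 and -0.88 in pairs 1, 2, 3 and 5. With collagen on Cy3 they were 0.69, 0.45, 0.53, 1.41 and 1.26 in pairs 1 to 5. The signal of this probe was thus lower in Cy5 whichever RNA carried it. Taken as Cy5 over Cy3 the ratio was -0.99 (SE 0.16; limma adjusted p = 0.0230), while collagen over control was -0.30 (SE 0.19) with a limma adjusted p of 0.655. A second Kcnma1 probe, measured on all 10 arrays, had 0.02 for Cy5 over Cy3 and -0.01 for collagen over control. The other calcium-activated member tested, Kcnu1, a sperm channel in the mouse, had 0.15.

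Kcng4 was the other channel with a dye ratio past the threshold, at -0.78 (SE 0.12, adjusted p = 0.0229 by limma). Over all tested probes 1.75% had a lower and 0.0485% a higher Cy5 signal at an adjusted p under 0.05, and among channel and pump probes these counts were 2 and 0. Kcng4's array ratios of collagen over control were all below 0 with collagen on Cy5 (-1.57 to -0.07) and all above 0 with collagen on Cy3 (0.36 to 1.22), and its mean was -0.02. For 26 of the 57 probes the dye ratio was larger in size than the collagen ratio (45.6%, against 62.9% of all tested probes). By construction, the arrays of both orientations then point to opposite sides on average, so this is no further result.

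**Figure D5:**
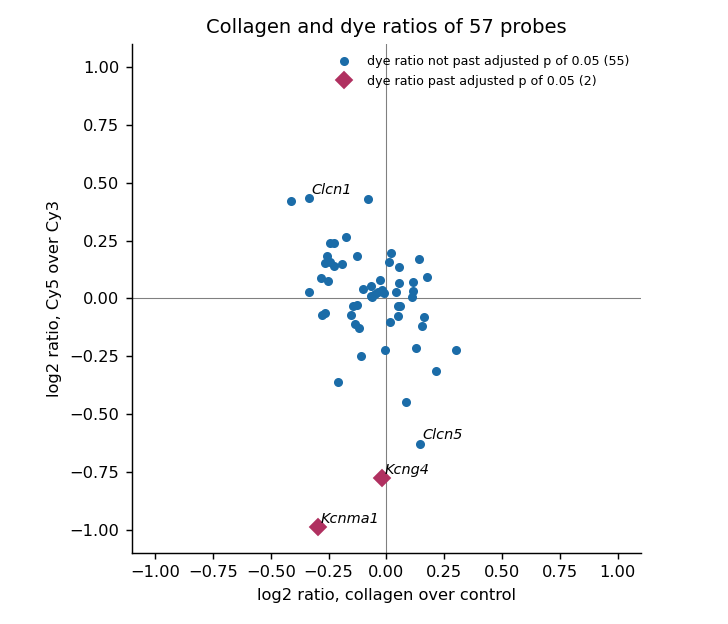
Log2 ratio of Cy5 over Cy3 (vertical axis) against that of collagen over control (horizontal axis) for the 57 tested ion channel and pump probes, both as means of 3 replicates on the same scale. Kcnma1 at -0.99 and Kcng4 at -0.78 (diamonds) passed the adjusted threshold for the dye, and no probe did for collagen.

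The sodium channels had 3 of 6 probes tested. Scn1a, the channel that carries firing in many inhibitory neurons, had the highest ratio of the set, 0.30 (SE 0.15, unadjusted p = 0.0867 and adjusted p = 0.642 by limma). It rested on replicate 3: the pairs had -0.02, 0.32, 0.69 and 0.14 in pairs 1, 2, 3 and 5, and print-tip loess gave 0.05. Its intensity was 95.2, 197 and 1221 in collagen RNA and 59.5, 188 and 978 in control RNA (lowest, median and highest of 8 arrays). Scn2a, the main channel of excitatory axons, had -0.05 and Scn3a, most active before birth, -0.02.

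Calcium channel pores were lower in 5 of 6 tested probes (median -0.12). The low-voltage T-type channels Cacna1i, Cacna1g and Cacna1h had -0.21, -0.17 and -0.08. Cacna1i had the smallest p of the class (SE 0.11, unadjusted p = 0.0983 and adjusted p = 0.642 by limma), with 0.06, -0.23, -0.12, -0.23 and -0.62 in pairs 1 to 5. Its intensity was 219, 1058 and 1772 in collagen RNA and 508, 1188 and 2418 in control RNA. With collagen on Cy5 all 5 arrays were lower (-1.49 to -0.12), and with collagen on Cy3 4 of 5 were higher. The L-type channels Cacna1c, Cacna1f and Cacna1d had -0.13, -0.11 and 0.18. Of the auxiliary subunits, Cacnb1 and Cacnb2, which carry the pore to the membrane, had -0.07 and 0.14, Cacna2d3 0.05 and Cacng3, a relative of stargazin, 0.05.

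All 6 pump probes with a test were below 0, with a median of -0.13, against 54.5% of all tested probes. With print-tip loess the 6 were again below 0 (54.8% of all tested probes), with a median of -0.10. Atp2c1 was close to 0 both ways, at -0.0046 and -0.0045, as was Atp1b2 with print-tip loess, at -0.0045. None of the 6 had an unadjusted p under 0.05 by limma. The replicate medians of the pumps were -0.10, -0.02 and -0.28, a mean of -0.13 ± 0.14 (SD, n = 3), so their shift did not exceed its spread. Atp2c2, a calcium and manganese pump of the secretory pathway, had 0.04, -0.28, -0.32, -0.24 and -0.23 in pairs 1 to 5, a mean of -0.22 (SE 0.10, unadjusted p = 0.0565 and adjusted p = 0.642 by limma). Print-tip loess put it at -0.06. Its intensity was 31.5, 140 and 583 in collagen RNA and 104, 176 and 493 in control RNA, and 8 of 10 arrays were lower. The median signal over background of this probe was 0.89 in collagen RNA and 1.29 in control RNA.

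Atp2a2, the calcium pump of the endoplasmic reticulum, had -0.28, all of it from replicate 3 (0.05, 0.01 and -0.89). Atp2b1, which expels calcium through the cell membrane, had -0.14, and Atp2c1 stood at 0.00. Of the sodium-potassium pump, Atp1b2, the beta subunit of astrocytes, had -0.13 (SE 0.09; replicates -0.09, -0.10 and -0.19) and Atp1a4, an alpha subunit known from sperm, -0.12. With print-tip loess Atp1b2 was at 0.00.

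Among chloride carriers of the Clcn family 4 of 5 tested probes were above 0, with Clcn1 alone below. Clcn4, an exchanger of chloride and protons in endosomes, was above 0 in all 5 pairs, at 0.12, 0.01, 0.14, 0.12 and 0.15, with a mean of 0.11 (SE 0.09, unadjusted p = 0.248 and adjusted p = 0.669 by limma). Its intensity was 105, 690.2 and 3347 in collagen RNA and 166, 590.1 and 2458 in control RNA, and 7 of 10 arrays were higher. Its second probe, measured in pairs 3 to 5, had 0.05, and with print-tip loess the probes stood at 0.03 and 0.07. Clcn5, the endosomal exchanger of kidney tubules, had 0.14 with replicates of 0.28, 0.54 and -0.38, and Clcn3, found on synaptic vesicles, 0.01.

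Clic proteins exist in a soluble and a membrane form. Clic1 had the lowest ratio of the set, -0.41 (SE 0.18, unadjusted p = 0.0573 and adjusted p = 0.642 by limma). The pairs 3, 4 and 5 had -0.95, -0.12 and -0.17, so the size came from replicate 3, and print-tip loess gave -0.20. Its median signal over background was 0.84 in collagen RNA and 1.04 in control RNA. Clic4 had 0.12. Among TRP channels Trpc1 had 0.13 (SE 0.11; replicates 0.03, -0.02 and 0.37) and -0.07 with print-tip loess, and Trpv6, a calcium channel of absorbing epithelia, -0.07.

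Calcium release channels were represented by 2 tested probes. Itpr2, the IP3 receptor of astrocytes, had 0.11, 0.34, -0.21, 1.03 and 0.24 in pairs 1 to 5, a mean of 0.22 (SE 0.16, unadjusted p = 0.219 and adjusted p = 0.662 by limma) and 0.21 with print-tip loess. Pair 4 was well above the other pairs. The mean was 0.06 without pair 4, 0.04 without replicate 1 and 0.05 with median centring. Its further probes were measured on 2 and 3 arrays and gave no pair. Ryr2, the ryanodine receptor of heart and brain, had 0.01.

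Replicate 3 rests on 1 pair, whereas replicates 1 and 2 average up to 2 each, and its ratios were larger. In it 18 of the 57 probes lay under -0.3 and 5 over 0.3. In replicate 1 these counts were 6 and 2, and in replicate 2 they were 2 and 2. The largest of a probe's 3 replicate ratios by size came from replicate 3 in 54.4% of the channel and pump probes and in 60.4% of all tested probes. Across the 57 probes, replicates 1 and 2 correlated at 0.32, replicates 1 and 3 at -0.05 and replicates 2 and 3 at 0.22. Over all tested probes the same pairs of replicates had 0.10, 0.07 and 0.20. These probes share arrays and position effects, and with print-tip loess the values over the 57 were 0.24, -0.11 and 0.06.

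The remaining 46 probes lacked a ratio in at least 1 replicate and carry no test. Replicate 3 was missing in 40 of them, and in 22 it was the only one missing. Kcne4, Kcnmb1 and Trpc4ap were measured on 1 array. Cacng4, Clic5, Scn7a and a probe of Itpr2 were measured on 2, and Kcnmb4os1, Kcnj8, Kcne3, Scn10a, Scn9a, Kcnk7 and another probe of Itpr2 on 3. Scn10a and Scn9a are channels of pain-sensing peripheral neurons, and Kcnmb1 the BK subunit of smooth muscle. The skeletal muscle pump Atp2a1 and the inward rectifier Kcnj2 were measured on 4 arrays.

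On 5 arrays stood the P/Q-type calcium channel Cacna1a of presynaptic terminals, Cacna2d2, Cacng1, Hcn3, Kcne1l, Kcne2, Kcnmb2, Atp1b3, Trpm1, Kcna2, Kcnq1 and a second probe of Kcnip1. On 6 stood both probes of Clcn7, Clic3, Atp1b4, Trpc7, Kcnk2 and Kcnk5. Ryr1 and Kcna4 were measured on 7 arrays, and Cacna1e, Kcnn1, Clcn6, Kcnk4 and a second probe of Kcnh3 on 8. Kcnip4, Kcna6, Kcnh1 and Kcnh2 had 9 arrays and 4 pairs, lacking pair 3. Kcna6, a relative of Kcna1, had 0.26, -0.15, 1.5 and 0.28 in pairs 1, 2, 4 and 5, and the other 3 genes lay between -0.24 and 0.67. Of the 46 probes, 28 had a ratio in 2 or more pairs, and in these 8 were lower in every pair they had, 6 higher in every pair and 14 on both sides of 0. The same split over all untested listed probes was not taken. With as few as 2 pairs per probe, a shared side is easily met, so these counts say nothing particular about the set. Among the 8, Cacna1a had -0.22 and -0.15 in pairs 4 and 5. Among the 6, the tandem-pore channel Kcnk2 had 0.29 and 0.28 in the same pairs.

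Partners of channels and channels of other families, a related list that holds no member of the set, gave no call. Of 61 such genes 32 had a probe and 20 were tested, with 7 higher, 13 lower, a median of -0.04 and 0 at an unadjusted p under 0.05 in either direction. On the lower side the smallest p belonged to Fgf13, which binds sodium channels, at -0.25 (SE 0.11), the pump regulator Fxyd2 at -0.25 (SE 0.13) and the calcium sensor Stim1 at -0.15 (SE 0.11). On the higher side were Fxyd1, another pump regulator, at 0.18 (SE 0.09), the mitochondrial pore Vdac3 at 0.26 (SE 0.17) and Fkbp1b, which binds ryanodine receptors, at 0.20 (SE 0.19). Their adjusted p by limma lay between 0.642 and 0.705.

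Cell type markers were measured beside the channels. All 5 neuron markers with a probe were tested and below 0, with a median of -0.12 (-0.05 with print-tip loess). They were Syt1, Gad1, Gad2, Snap25 and Map2, and none passed the test. Snap25 alone was below 0 in every replicate. Gad1 had 0.11, 0.05 and -0.42 in replicates 1 to 3 and Gad2 0.25, 0.07 and -0.78, so both were lower through replicate 3. Print-tip loess put Gad1 at 0.08 and left the others below 0. Markers of astrocytes, oligodendrocytes, microglia and the choroid plexus had 2, 1, 2 and 2 tested probes, with medians of -0.07, -0.08, -0.12 and -0.15. With print-tip loess these medians were 0.01, 0.01, -0.15 and -0.12. The astrocyte markers lay on both sides, Aldh1l1 at -0.20 and Slc1a3 at 0.06. So did those of microglia, Cd68 at -0.28 and Itgam at 0.03. Striated muscle had 1 tested probe, at -0.20 (-0.32 with print-tip loess), and endothelium none. No probe stood for the blood markers. Their part in the channel ratios was not tested.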

How the data were processed

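Ratios were measured on 10 arrays (5 dye-swap pairs, 3 replicates). Each array came with 3 readings at rising gain. Per the file headers, the deposited files hold a spot intensity per channel from which the authors had already taken the local background, that background, and a letter flag. The deposited files also give a fraction per spot, a saturation factor as the authors made it, which the file headers do not define. It was below 1 for 0 to 11 of the 103 channel and pump probes on an array. The authors' deposited table of processed values gives each spot of an array a score that behaves as a log ratio. The sources used here give neither its base and normalisation nor the image software, and the table served as an alternative. Its values were assumed to be already turned to collagen over control on every array. Their sizes need not match the log2 ratios.

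Spots with flags B, C or S and an intensity above 0 in both channels were kept. Log2 ratios were normalised by global loess (span 0.3) within each reading and averaged over readings, over the arrays of a pair, where neither could be missing, and over the pairs of a replicate. Background correction by normexp (offset 50) was kept as an alternative, since the deposited intensities were corrected already. An intercept was fitted in limma (R 4.3.3, limma 3.58.1, statmod 1.5.0; lmFit and eBayes, two-sided) to the 4125 listed probes with a value in all replicates and p-values were adjusted after Benjamini and Hochberg. Standard errors (SE) are the moderated ones of limma. The fit was tested on simulated data. The same fit was made of Cy5 over Cy3.

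Symbols came from the platform table. Of its probes 9066 had 1 symbol and 12 had several, and the latest symbols in the RefSeq gene table of GRCm38.p6 left the set as it was. The sources used here do not name the array's genome build, so no positions are printed. The set, its classes and the lists of related genes and cell markers were chosen with earlier results of these data known. Described in full were the 6 lower and up to 6 higher probes with the smallest p and 1 sign in all replicates (3 higher ones qualified), the smallest p of each class and further probes of those genes. All other members appear with their ratio or number of arrays. Depth on an array is limited by the number of arrays and by signal over background.

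The alternatives were background correction, normalisation, readings, replicates and pairs left out, the unit of replication, the spots fitted and the authors' values. Across probes, the correlation between pairs that share a number was 0.0913 and 0.142, and 0.0935 was the mean for pairs with different numbers.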

Additional observations from a re-analysis of the deposited data

Results flagged for a closer look

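The dyes disagreed for Kcnma1, the pore of the BK channel. Its Cy5 over Cy3 ratio was -0.99 (adjusted p = 0.0230 by limma), so arrays with collagen on Cy5 and arrays with collagen on Cy3 gave effects of opposite sign.

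Within the 4 Kcnma1 arrays with collagen on Cy5, the array of pair 3 lay far from the others. Its ratio of collagen over control was -2.31, and the other 3 lay between -0.88 and -0.73. Among 28 groups of 4 or 5 arrays examined in the 18 probes described, this was the 1 group with such a gap, and chance alone marks about 1 in 20 groups.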

How the results depend on the processing

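The set's median stayed below 0 in all 23 settings, from -0.12 with median centring to -0.01 for probes outside grid rows 1 to 3 (a setting chosen after seeing the data, like print-tip loess without replicate 3). The median of all tested probes was -0.05 with median centring and 0.01 outside grid rows 1 to 3. With no background correction the set had -0.013 and all tested probes -0.007. Without replicate 3 the set had -0.03 and all tested probes 0.002. Part of the lower side was thus shared by the whole array. Over all probes 0 passed the adjusted threshold, but 1 did with scaling between arrays and 1 in the authors' deposited values. With a replicate left out the count ran from 0 to 1, the 1 being without replicate 2. Channel and pump probes at an unadjusted p under 0.05 numbered 5 of 57 in the main setting, against 6.50% of all tested probes (both directions). They numbered 10 of 57 with no background correction (9.70% of all), 2 of 57 with print-tip loess (4.19%), 3 of 57 with median centring (3.49%), 1 of 45 in reading 1 alone (6.32%) and 3 of 38 in reading 2 alone (6.18%). Reading 3 alone gave 4 of 37 (7.46%), scaling between arrays 7 of 57 (8.34%) and the 5 pairs taken as replicates 7 of 57 (8.63%). The authors' values gave 6 of 40 (5.85%), and probes measured on all 10 arrays 4 of 28 (5.96%). Outside grid rows 1 to 3 they numbered 2 of 43 (4.60%). These were all lower, except 1 of the 3 in reading 2. With normexp, 5 of 57 were lower and 1 higher (5.70%). With replicates or pairs left out the count ran from 2 of 38 without pair 4 (5.69% of all; 3 of 37 without pair 5, 4.59%) to 9 of 79 without replicate 3 (6.25%), and 5 of those 9 were higher. Dye calls numbered 74, against 255 with no background correction and 21 with median centring.

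When the 10 arrays were fitted with a replicate block, 8 of 57 channel and pump probes had an unadjusted p under 0.05 (6 lower, 2 higher; 8.29% of all), and 7 with a dye term beside it (6 lower, 1 higher; 7.13%). The consensus correlation was -0.16. The title numbers set which arrays were averaged into a replicate and were not otherwise used as a block.

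Of 349 other values of the 18 probes described, 332 kept their sign and 17 turned, at an adjusted p of 0.74 or more in each. In the authors' values, assumed to be already turned to collagen over control, Atp1b2 was 0.0074, Cacng2 0.037 and Trpc1 -0.050. Print-tip loess gave Trpc1 -0.071 and Kcnj1 -0.0048. Median centring gave Trpc1 -0.029, Kcnj1 -0.038 and Kcnq5 -0.063, and Kcnq5 had -0.013 in reading 3 alone. Kcnma1 was 0.0054 under the replicate block and ran from -0.46 to 1.8e-06 with a replicate left out. With print-tip loess without replicate 3, Kcnma1 was 0.075, Clic1 0.020, Kcnab3 0.015, Clcn4 -0.0016, Scn1a -0.0092 and Trpc1 -0.047. The cause was not tested.

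Members lost in channel B, the 3 replicates and spots near background limit what these arrays can show.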
